A study of Mus musculus with 6 samples.

Results

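The transcripts of 10 mucins and mucus layer proteins were followed in the colon of Adamts4 knockout mice (KO) and wild-type mice (WT), all of which had received 2.5% dextran sodium sulfate (DSS) for 7 days. They were taken by gene symbol from a table of 21899 genes, in which each of the 10 had a single row, and all 10 passed the filter on low counts. They fall into 3 kinds by role: the gel-forming mucin Muc2 with the proteins packed or secreted with it (Fcgbp, Clca1, Zg16, Tff3), the endoplasmic reticulum protein Agr2 that mucin production needs, and the membrane-bound mucins (Muc1, Muc4, Muc13, Muc20). Each genotype had 3 libraries of whole colon RNA, numbered 1 to 3. DSS in drinking water damages the epithelium of the colon and is widely used to bring on acute colitis in mice, and ADAMTS4 is an extracellular protease known for cutting the proteoglycans aggrecan and versican. Neither the allele and strain nor the age and sex of the mice are stated, and the labels do not tie a library to a single animal. The p-values therefore describe how far these 6 libraries spread, which may be technical. All animals received DSS, and untreated colon was not analysed here.

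Goblet cells of the colon release Muc2, a very large protein whose threonine- and serine-rich repeats carry dense O-glycans and which polymerises into a gel that keeps bacteria away from the epithelium. Agr2, a protein disulfide isomerase of the endoplasmic reticulum, is needed in mice for Muc2 production. Fcgbp, Clca1 (a metalloprotease that processes Muc2), the lectin-like Zg16, which binds Gram-positive bacteria, and the trefoil peptide Tff3, which aids repair of the epithelium, are abundant in the secreted mucus. Membrane mucins stay anchored in the apical surface, form the glycocalyx and can signal into the cell, and in the colon Muc13 is carried by absorptive as well as goblet cells.

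Total counts per library lay between 15786214 and 20348172 in KO and between 17895970 and 22932125 in WT. Adamts4 had no count in the KO libraries and 38.5 to 56.0 CPM in the WT libraries, where CPM is the count of a gene relative to its library's total, scaled by a TMM factor. On the first principal component, the library furthest from the rest was KO 3, with 63.8, where the other KO libraries had -18.4 and 22.4 and WT -43.1 to -2.09. By a chi-square of the counts per degree of freedom, KO 1 lay nearer to WT 3 (54.5) than to KO 2 (122) or KO 3 (194). KO 3 lay nearest to KO 2 (65.7). The mitochondrial share of counts ranged from 4.03% to 9.50% in KO, highest in KO 3, and from 4.29% to 6.05% in WT. Goblet and epithelial markers were present in all 6 libraries: the pan-epithelial list (9 of 9 genes tested) summed to 10920 to 13533 CPM in KO and 10101 to 11596 CPM in WT. Of the 6 genes of the stomach list, Gkn1, Gkn2 and Muc5ac had no count in any library. Tff2 of that list had 68.7 CPM in KO 1 and 52.4 CPM in WT 3, and at most 3.72 CPM in the others. Muc6 had 0.483 to 3.80 CPM, and Tff1 at most 0.299 CPM.

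The windows below are the 250 bases before the RefSeq start (GRCm38.p6) of the pair of genes with the smallest p-values in the set, Agr2 and Muc20, and of Muc2, the gel-forming mucin, 5′ to 3′ on the strand of the gene. The table of promoters holds 7 of the 10 genes, Muc13 with 2 starts. Clca1, Zg16 and Tff3 were not among them. Capitals mark matches on either strand to 5 short motifs. These are the core of the TATA box, TATAAA, the core of sites for CDX factors, TTTATG, the core of sites for KLF factors, CCACCC, the core of forkhead sites, TGTTTAC, and an E-box, CAGCTG.
Agr2 (chr12:35992675-35992924, plus strand): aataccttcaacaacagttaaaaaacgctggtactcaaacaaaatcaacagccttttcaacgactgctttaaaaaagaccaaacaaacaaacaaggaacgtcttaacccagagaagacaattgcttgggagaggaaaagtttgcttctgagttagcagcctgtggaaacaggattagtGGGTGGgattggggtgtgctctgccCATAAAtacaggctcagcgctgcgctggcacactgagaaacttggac
Muc20 (chr16:32797436-32797685, minus strand): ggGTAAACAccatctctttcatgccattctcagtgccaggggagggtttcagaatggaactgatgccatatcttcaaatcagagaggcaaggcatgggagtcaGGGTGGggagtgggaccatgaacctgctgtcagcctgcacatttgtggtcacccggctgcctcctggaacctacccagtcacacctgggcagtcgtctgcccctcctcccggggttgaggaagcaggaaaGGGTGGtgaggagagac
Muc2 (chr7:141690090-141690339, plus strand): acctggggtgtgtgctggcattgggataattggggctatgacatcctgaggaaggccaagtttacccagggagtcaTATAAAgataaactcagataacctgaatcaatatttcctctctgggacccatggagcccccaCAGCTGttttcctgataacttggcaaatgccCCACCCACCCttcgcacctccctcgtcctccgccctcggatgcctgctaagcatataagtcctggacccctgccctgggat
The Agr2 window held TTTATG read on the opposite strand, 42 to 47 bases before the start, and 1 CCACCC. The Muc20 window held TGTTTAC on the opposite strand, 242 to 248 bases before the start, and 2 CCACCC. The Muc2 window held TATAAA 169 to 174 bases before the start, the E-box CAGCTG 107 to 112 bases before it, and 2 copies of CCACCC that overlap each other. Among 32851 mouse promoters cut to the same length, 12.4% held TATAAA, 10.8% TTTATG, 13.0% CAGCTG, 3.17% TGTTTAC and 28.1% CCACCC. No motif was shared by Agr2, Muc20 and Muc2 other than CCACCC, the most frequent of the 5. A match is a description of letters and not a binding site.

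The levels of the 10 transcripts spanned more than 3 orders of magnitude on the authors' TPM scale, which corrects for transcript length and so allows genes to be compared. In KO libraries the order was Zg16 (5714 ± 1380 TPM, SD, n = 3), Agr2 (4352 ± 152), Muc2 (2063 ± 807), Muc13 (1729 ± 364), Tff3 (1720 ± 290.0), Clca1 (1385 ± 823), Fcgbp (494 ± 234), Muc4 (53.2 ± 29.0), Muc1 (24.8 ± 19.8) and Muc20 (0.993 ± 0.223). In WT libraries it was Zg16 (6208 ± 1700), Agr2 (2409 ± 235), Tff3 (2018 ± 44.4), Muc13 (1914 ± 310.0), Muc2 (1468 ± 284), Clca1 (1216 ± 364), Fcgbp (602 ± 186), Muc4 (39.2 ± 16.8), Muc1 (15.4 ± 15.9) and Muc20 (0.242 ± 0.0749). Neighbours in the range from Muc2 to Clca1 overlapped in both genotypes, as did Muc4 and Muc1. Agr2 overlapped Zg16 in KO, where KO 3 had 4153 TPM of Zg16 and 4281 TPM of Agr2, and lay apart from Zg16 in WT. Muc2 took 1.09% to 2.18% of all counts in KO libraries and 0.913% to 1.34% in WT libraries. The transcript lengths behind the TPM values are not stated, and reads from mucin repeats may map to more than 1 place, so the rank of the large mucins carries that uncertainty.

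**Figure D1:**
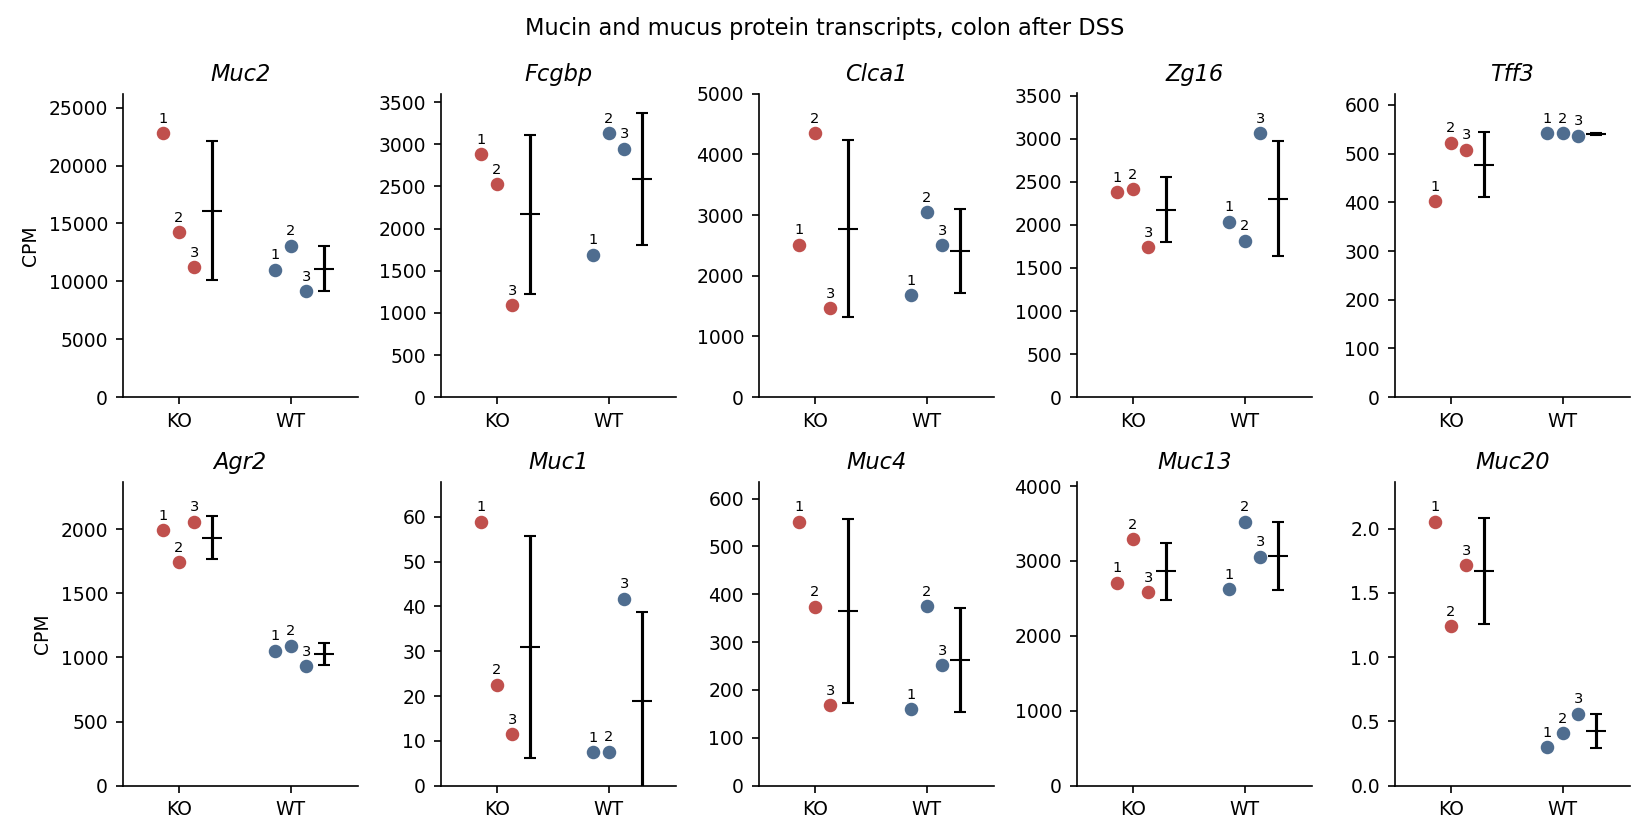
CPM of each transcript in the 3 KO libraries (red, left) and the 3 WT libraries (blue, right), numbered by replicate, with the mean and SD in black; each panel has its own axis from 0, and the lower SD bar of Muc1 in WT is cut at 0. The Agr2 and Muc20 values of KO lie above all WT values, the Tff3 values of KO lie below them, and the other 7 genes overlap.

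None of the 10 passed the main test, in which edgeR called 0.00687% of 14553 genes higher and 0.151% lower in KO at an adjusted p below 0.05. At an unadjusted p below 0.05, 2 of the 10 members were higher (Agr2 and Muc20) and none lower, where 5.17% of all tested genes were higher and 7.85% lower. DESeq2, run on the same counts, called those same 2 members higher and none lower, against 0.597% and 2.43% of 17758 genes. These are all genes with any count, also those to which DESeq2 gave no adjusted p. The DESeq2 shares are therefore not like for like with those over the 14553 genes that passed the filter. On these 14553, limma-voom called no member, against 0.0137% and 0.186%. The median log2 fold change of the 10 members was 0.34, beside 0.03 over all tested genes. That median moved with single libraries: it was -0.0062 without KO 1, 0.147 without KO 2, 0.63 without KO 3, 0.0999 without WT 1, 0.38 without WT 2, and 0.33 without WT 3. In CPM, KO and WT values did not overlap for Agr2 and Muc20 (KO higher) and for Tff3 (KO lower), where 9.35% and 10.2% of tested genes did so. On the authors' TPM scale, Agr2 and Muc20 were again apart, but Tff3 overlapped, with 2029 TPM in KO 2 against 2014 TPM in WT 1 and 1975 TPM in WT 3. For such a gene an exact two-sided permutation test gives p = 0.1, the smallest that 3 libraries against 3 allow.

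Agr2 (ENSMUSG00000020581, chromosome 12, 35992907 to 36004087, plus strand, GRCm38) was about 1.88-fold higher in KO. It measured 1994, 1742 and 2059 CPM in KO 1, KO 2 and KO 3, against 1052, 1092 and 931 CPM in WT 1, WT 2 and WT 3. Each KO library thus lay above each WT library, and the spread within a genotype was small (1932 ± 168 CPM in KO and 1025 ± 84.0 CPM in WT, SD, n = 3 each). The log2 fold change was 0.91 ± 0.17 (SE, 95% interval 0.52 to 1.31), with an adjusted p of 0.0849 in edgeR and 2.22e-06 in DESeq2. The authors' deposited table gives it a log2 fold change of 0.85 and a false discovery rate of 2.51e-06. Agr2 was called by DESeq2 in each of the 6 fits that left out 1 library (adjusted p 3.03e-07 to 0.000154) and by edgeR in none of them (0.0830 to 0.304).

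Agr2 was also higher relative to Tff3 and Epcam of the same libraries, though not clearly relative to Muc2. Tff3 itself was lower in each KO library in CPM, which widens its ratio. The ratio of Agr2 CPM to Tff3 CPM was 4.95, 3.33 and 4.05 in the KO libraries (1 to 3 in order), against 1.94, 2.02 and 1.73 in those of WT. CPM is not corrected for transcript length, so such ratios compare libraries and do not count transcripts. The ratio of Agr2 CPM to that of Epcam, an adhesion molecule of all colon epithelium, was 1.44, 1.20 and 1.26 in KO and 0.837, 0.882 and 0.777 in WT. Relative to Muc2, its client, the groups overlapped: 0.0874, 0.122 and 0.184 in KO and 0.0957, 0.0836 and 0.102 in WT. These ratios were chosen after the values were seen and were not tested. In bulk colon RNA, more cells of a type and more RNA per cell cannot be told apart.

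Muc20, a membrane mucin best known from kidney and, in the human gut, from the epithelial surface, was scarce in every library but less so in KO. It had 40, 20 and 32 counts in KO 1, KO 2 and KO 3, against 7, 8 and 10 counts in WT 1, WT 2 and WT 3. Scaled, these were 1.67 ± 0.410 CPM in KO and 0.423 ± 0.132 CPM in WT (SD, n = 3 each), again without overlap. The log2 fold change was 1.99 ± 0.42 (95% interval 1.01 to 2.96), with an adjusted p of 0.116 in edgeR and 0.0339 in DESeq2, and the authors' deposited table gives a false discovery rate of 0.0384. With 1 library left out, DESeq2 called it without KO 2 (adjusted p = 0.0447) and without WT 3 (0.0463), and in the other 4 fits its adjusted p lay between 0.125 and 0.202. On log2(TPM + 1), which understates changes of low genes, the difference was 0.68.

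Muc20 (chromosome 16, 32777419 to 32797435, minus strand, GRCm38) overlaps Muc4 (chromosome 16, 32735886 to 32782391, plus strand), which converges on it from the other side. In the GENCODE M21 annotation, 627 of the 4027 exonic bases of Muc20 (15.6%) are also exonic in Muc4. Counting by strand is not stated, so reads from the shared bases cannot be assigned to either gene with certainty. KO 1 was highest for both genes (552 CPM of Muc4 and 2.06 CPM of Muc20) and WT 1 lowest for both Muc20 and Muc4 (0.299 and 159 CPM). KO 3 had 168 CPM of Muc4 with 1.72 CPM of Muc20, while WT 2 had 376 CPM of Muc4 with 0.408 CPM of Muc20. Pearson r of the pair over the 6 libraries was 0.375, and the part of shared reads in the Muc20 values was not tested. Muc4 was matched to the annotation by symbol, since the deposited identifier belongs to another release; the other 9 members were matched by identifier.

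**Figure D2:**
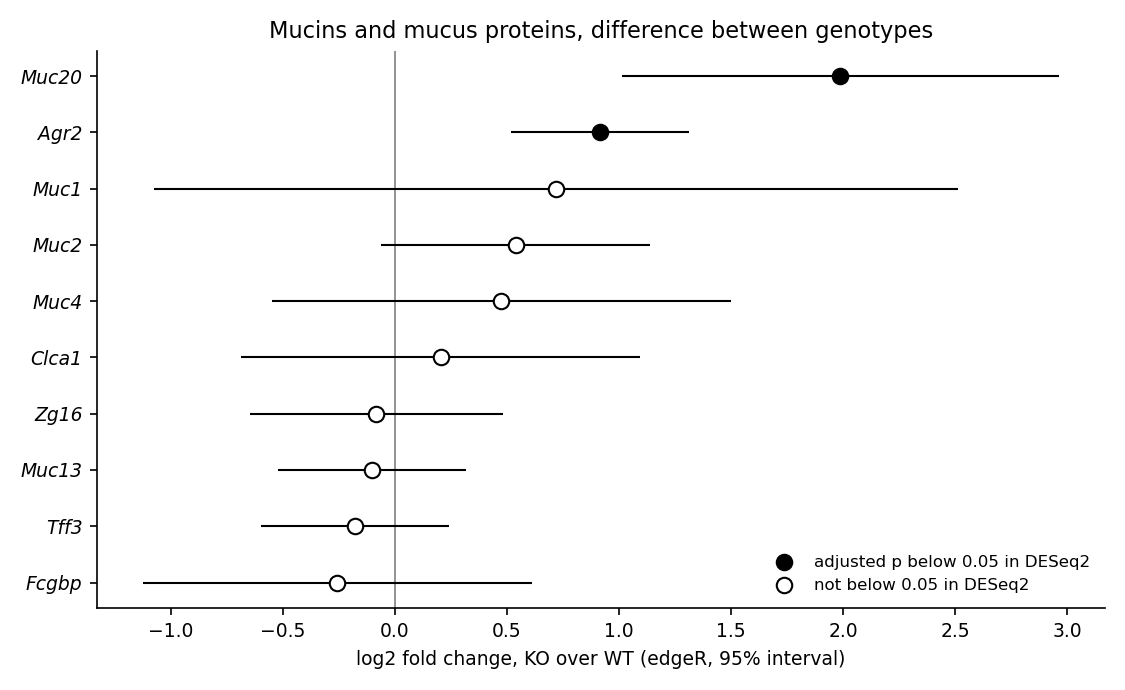
Log2 fold change of each transcript, KO over WT, from edgeR with its 95% interval; filled points had an adjusted p below 0.05 in DESeq2. The intervals of Muc20 (1.01 to 2.96) and Agr2 (0.52 to 1.31) lie above 0, and those of the other 8 genes include 0.

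Muc2, the main gel-forming mucin (chromosome 7, 141690340 to 141754693, plus strand), had 22797, 14264 and 11203 CPM in KO 1, KO 2 and KO 3, against 10989, 13060 and 9170 CPM in WT 1, WT 2 and WT 3. KO 1 stood high and KO 3 lay within the WT range. The log2 fold change was 0.54 ± 0.26 (95% interval -0.06 to 1.14, edgeR adjusted p = 0.423) and was 0.20 without KO 1. As a ratio of KO to WT, the interval runs from 0.959 to 2.20.

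None of the 4 genes whose proteins are secreted with Muc2 passed a test. Fcgbp, a large protein with von Willebrand domains that is found in the Muc2 gel, had 2881, 2529 and 1091 CPM in the KO libraries and 1690, 3132 and 2945 CPM in the WT libraries. Its log2 fold change of -0.26 ± 0.38 (95% interval -1.12 to 0.61) became 0.06 without KO 3, its lowest library. Clca1 had 2510, 4350 and 1469 CPM in KO and 1675, 3048 and 2505 CPM in WT, so that the highest and the lowest library were both KO. Its log2 fold change was 0.20 ± 0.39 (95% interval -0.69 to 1.09), and -0.28 without KO 2 or -0.01 without WT 1.

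Zg16 had 2381, 2415 and 1738 CPM in KO and 2035, 1818 and 3066 CPM in WT, with WT 3 the highest. The log2 fold change was -0.08 ± 0.24 (95% interval -0.65 to 0.48), and it was above 0 without KO 3 (0.06) or WT 3 (0.18). Tff3 had 402, 523 and 508 CPM in KO and 542, 542 and 537 CPM in WT, the narrowest range of the 10 within WT (1.01-fold). The KO values all lay lower in CPM, KO 1 furthest, and the log2 fold change of -0.18 ± 0.18 (95% interval -0.60 to 0.24) had an adjusted p of 0.721 in edgeR and 0.776 in DESeq2. The adjusted p of Fcgbp, Clca1 and Zg16 lay between 0.816 and 0.913 in edgeR. A similar gene next to Fcgbp, 9530053A07Rik, had a single count in each genotype.

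Among the membrane mucins, Muc13 was abundant and even. It had 2707, 3293 and 2581 CPM in KO and 2620, 3525 and 3057 CPM in WT, with a log2 fold change of -0.10 ± 0.18 (95% interval -0.52 to 0.32, adjusted p = 0.849 in edgeR). As a ratio of KO to WT, that interval runs from 0.697 to 1.25. Muc4, a large mucin that can bind the receptor ErbB2, had 552, 374 and 168 CPM in KO and 159, 376 and 252 CPM in WT. The KO libraries spanned 3.29-fold and the WT libraries 2.36-fold, wider than the difference between genotypes (log2 fold change 0.48 ± 0.45, a ratio of KO to WT with a 95% interval of 0.684 to 2.83, adjusted p = 0.697 in edgeR).

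Muc1, a signalling mucin of many epithelia, varied most. It had 58.9, 22.5 and 11.5 CPM in the KO libraries, against 7.48, 7.54 and 41.7 CPM in the WT libraries. KO 1 and WT 3 were highest, KO 2 lay between, and KO 3, WT 1 and WT 2 were lowest, so that the groups overlapped. The log2 fold change of 0.72 ± 0.78 (95% interval -1.08 to 2.51, adjusted p = 0.737 in edgeR and 0.860 in DESeq2) turned to -0.15 without KO 1 and reached 2.05 without WT 3, where DESeq2 called it (adjusted p = 0.0248). The trefoil peptide gene Tff2, named after its values were seen, was also highest in KO 1 and WT 3, with 68.7, 2.60 and 0.0537 CPM in KO and 0.0855, 3.72 and 52.4 CPM in WT. Tff2 belongs both to the stomach list and to the list of other goblet cell products. Of the stomach list 2 of 6 genes were tested, and its sum was 0.537 to 72.6 CPM in KO and 1.07 to 54.7 CPM in WT. Tff2 itself made up most of the highest sums, those of KO 1 and WT 3. The part of Tff2-expressing tissue in the Muc1 values was not tested.

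**Figure D3:**
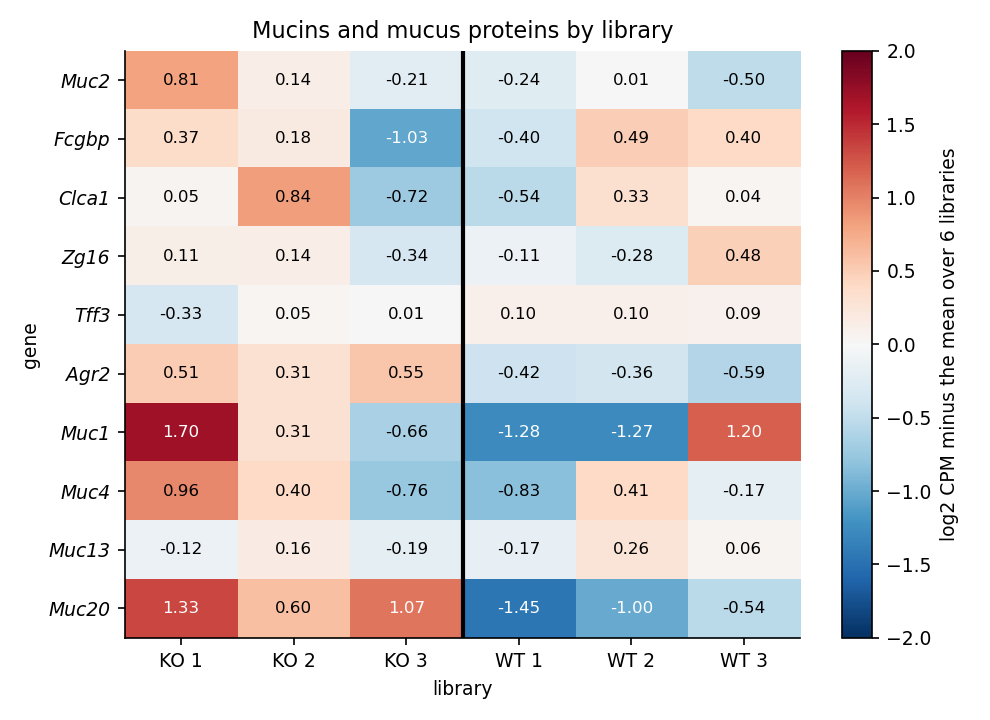
Log2 CPM of each transcript in each library minus its mean over the 6 libraries (red above, blue below). Agr2 and Muc20 are above their mean in all KO libraries and below it in all WT libraries, Muc1 is highest in KO 1 (1.70) and WT 3 (1.20), and Fcgbp and Clca1 are lowest in KO 3 (-1.03 and -0.72).

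The 10 genes did not move as 1 block across libraries. Over the 6 libraries, Pearson r of log2 CPM was 0.94 between Agr2 and Muc20, 0.83 between Clca1 and Muc13, 0.79 between Muc2 and Muc4 and 0.77 between Fcgbp and Clca1, but -0.87 between Muc2 and Tff3. These are descriptions over 6 libraries that share scaling and genotype. In KO 3, Fcgbp, Clca1 and Zg16 were at their lowest of the 6 libraries while Agr2 was at its highest. The 5 genes most like Muc2 among 13828 compared by this r were Sgsm1 and Zcchc2 (0.991 each), Cog2 and Atp2c2 (0.985 each) and Cited4 (0.981). None of these 5 passed the test between genotypes (edgeR adjusted p 0.438 to 0.706). They were picked for following Muc2, which was not called either (edgeR adjusted p = 0.423), so this is not a separate result.

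Other mucins and goblet cell products were examined to place the set. At an unadjusted p below 0.05 in edgeR, 5.17% of all tested genes were higher and 7.85% lower. DESeq2 called 0.597% higher and 2.43% lower. The counts of each list below stand beside these shares. Of the other mucins 4 of 10 listed were tested and none passed in edgeR or DESeq2, nor at an unadjusted p below 0.05 in edgeR (median log2 fold change 0.29). Muc6, a gland mucin, averaged 2.59 ± 1.83 CPM in KO and 1.30 ± 0.750 CPM in WT, and Muc3a, a membrane mucin, 103 ± 34.1 CPM in KO and 80.3 ± 29.5 CPM in WT. Muc3, a membrane mucin of intestinal enterocytes named after its values were seen, was the more abundant, with 7542, 8096 and 4499 CPM in KO and 5545, 5673 and 5986 CPM in WT (0.23 ± 0.22, edgeR adjusted p = 0.710).

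Among 13 tested goblet cell products, 0 passed in edgeR (2 higher and 1 lower at an unadjusted p below 0.05) and 1 was called higher in DESeq2, Reg4. Reg4, a lectin of deep crypt secretory cells, had 54.5, 91.1 and 60.6 CPM in KO and 25.9, 20.6 and 34.1 CPM in WT (1.36 ± 0.25, adjusted p = 0.0849 in edgeR and 0.000133 in DESeq2). Spink4, a goblet cell peptide, averaged 266 ± 43.9 CPM in KO and 188 ± 22.5 CPM in WT (0.50 ± 0.17, adjusted p = 0.293 in edgeR and 0.154 in DESeq2). The antimicrobial ribonuclease Ang4, named after its values were seen, averaged 24.3 ± 11.2 CPM in KO and 108 ± 118 CPM in WT, and WT 2 alone had 241 CPM. The list's median was 0.33.

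The transcription factors of the goblet lineage all had log2 fold changes above 0 (9 of 9 tested, median 0.39, where 7888 of 14553 genes were above 0). None passed in edgeR or DESeq2, and 5 were higher at an unadjusted p below 0.05 in edgeR, beside 5.17% of all tested genes. Other lists also leaned to 1 side. Above 0 were 8 of 9 pan-epithelial, 12 of 15 mucin folding and granule release and 6 of 6 smooth muscle genes. Below 0 were 7 of 7 neutrophil, 6 of 6 plasma cell and 6 of 6 fibroblast genes. Atoh1, which commits crypt cells to the secretory fate, averaged 93.2 ± 10.3 CPM in KO and 65.9 ± 17.1 CPM in WT (0.50 ± 0.20, adjusted p = 0.350 in edgeR). Creb3l1, a membrane-bound factor of secretory cells, averaged 278 ± 82.7 CPM in KO and 190 ± 11.1 CPM in WT (0.55 ± 0.22, adjusted p = 0.351).

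Of 23 enzymes that build mucin O-glycans, 22 were tested, none passed in edgeR and 1 was called lower in DESeq2. This was St3gal1, a sialyltransferase that caps core 1 glycans, with 68.1, 54.3 and 55.1 CPM in KO and 119, 107 and 96.2 CPM in WT (-0.86 ± 0.15, adjusted p = 0.0723 in edgeR and 0.000350 in DESeq2). Immune cells carry St3gal1 as well, and their part in these values was not tested. C1galt1c1, the chaperone of the core 1 enzyme, averaged 53.8 ± 10.1 CPM in KO and 37.0 ± 3.22 CPM in WT (0.54 ± 0.17, adjusted p = 0.258 in edgeR). At an unadjusted p below 0.05 in edgeR, 2 enzymes were higher and 1 lower, and the list's median was 0.14.

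Genes of mucin folding and granule release gave no call in edgeR or DESeq2 among 15 tested (median 0.20, with 0 higher and 1 lower at an unadjusted p below 0.05 in edgeR). The transglutaminase Tgm2 averaged 206 ± 62.9 CPM in KO and 344 ± 39.0 CPM in WT (-0.74 ± 0.23, adjusted p = 0.253 in edgeR and 0.0548 in DESeq2), and the chaperone Hspa5 622 ± 200.1 CPM in KO and 412 ± 44.5 CPM in WT (0.59 ± 0.27, adjusted p = 0.397). Tgm3, the enzyme that cross-links Muc2 in mouse colonic mucus, named after its values were seen, ran from 157 to 597 CPM in KO and from 4.02 to 439 CPM in WT, with a log2 fold change of 1.08 ± 1.23 and an edgeR adjusted p of 0.752.

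Of 11 cytokines and receptors known to act on goblet cells, 5 were tested, none passed in edgeR and 2 were called lower in DESeq2. The receptor chain Il4ra, which passes on signals of IL-4 and IL-13, averaged 93.9 ± 20.5 CPM in KO and 155 ± 17.3 CPM in WT (-0.73 ± 0.18, adjusted p = 0.169 in edgeR and 0.0207 in DESeq2). The alarmin Il33 averaged 7.73 ± 3.40 CPM in KO and 21.5 ± 12.5 CPM in WT (-1.47 ± 0.46, adjusted p = 0.247 in edgeR and 0.0237 in DESeq2). The cytokine genes Il4, Il13, Il22 and Il25 had too few counts to be tested. At an unadjusted p below 0.05 in edgeR, 2 of the 5 were lower, and the median was -0.31.

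**Figure D4:**
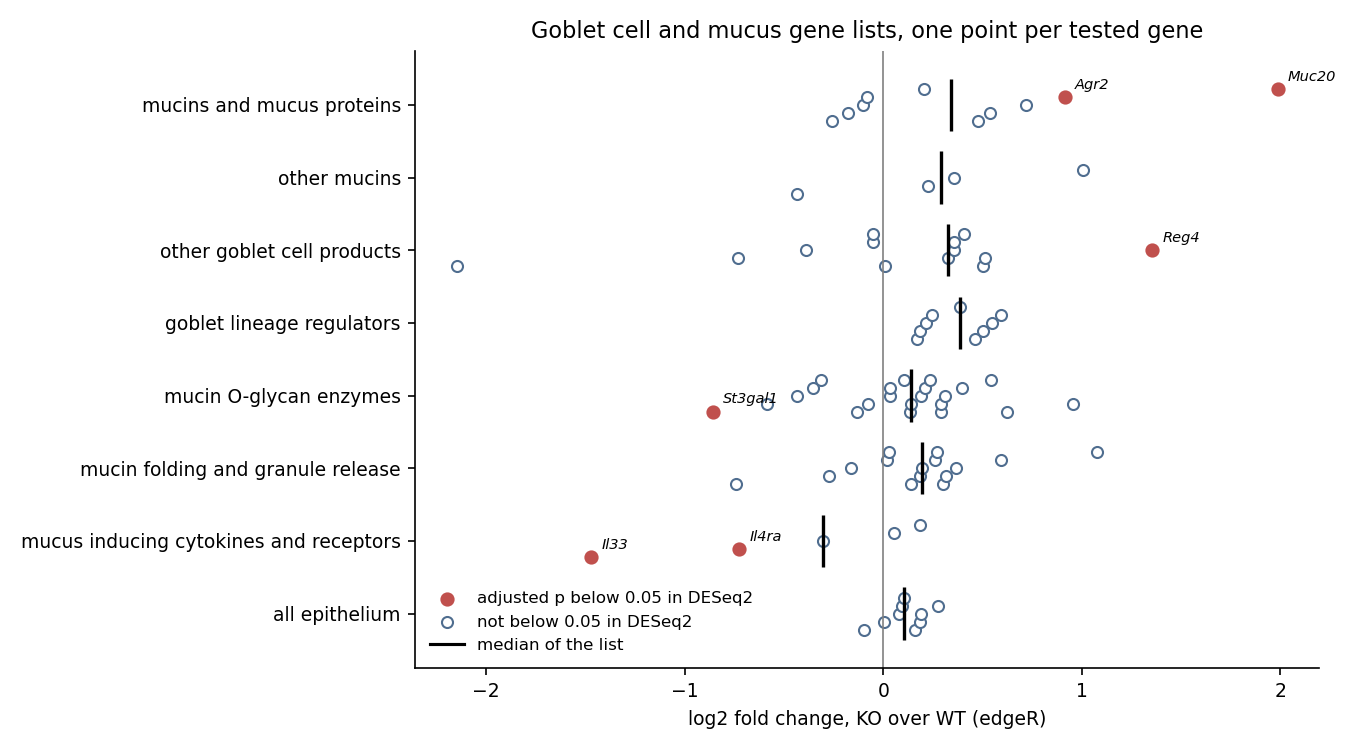
Log2 fold change, KO over WT, of every tested gene of the mucus, goblet cell and epithelial lists, with the median of each list as a black bar; filled points had an adjusted p below 0.05 in DESeq2. Agr2, Muc20 and Reg4 are the filled points above 0, and St3gal1, Il4ra and Il33 those below 0.

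Markers of the tissue's other cells also differed between these libraries. Pan-epithelial genes were nearly level (median 0.10, 0 of 9 called in edgeR or DESeq2, 0 at an unadjusted p below 0.05 in edgeR), with Epcam at 1493 ± 129.8 CPM in KO and 1231 ± 30.3 CPM in WT and Krt8 at 3929 ± 618 CPM in KO and 3443 ± 366 CPM in WT. Summed smooth muscle genes were 3710 to 4484 CPM in KO and 2105 to 3373 CPM in WT, and 3 of 6 were called higher in DESeq2, led by Actg2 (1.19 ± 0.25, adjusted p = 0.116 in edgeR and 0.000150 in DESeq2). Summed neutrophil genes were 10.2 to 37.4 CPM in KO and 87.3 to 189 CPM in WT, with 5 of 7 tested called lower in DESeq2. Summed plasma cell genes were 698 to 994 CPM in KO and 1081 to 1920 CPM in WT, with 2 of 6 called lower in DESeq2. Those 2 were Jchain (203.5 ± 95.5 CPM in KO and 737 ± 367 CPM in WT) and Mzb1 (6.73 ± 3.0 and 25.5 ± 10.6 CPM). Most of the KO sums came from Sdc1 and Xbp1 (log2 fold changes -0.20 and -0.16), and Xbp1 is also on the mucin folding list. Summed fibroblast genes overlapped (602 to 4005 CPM in KO and 2072 to 4430 CPM in WT), as did absorptive colonocyte genes (4039 to 11924 CPM in KO and 4695 to 6990 CPM in WT). Of the highest absorptive sum, that of KO 3, Car1 alone had 8524 CPM, against 1282 and 2508 CPM in KO 1 and KO 2. None of these marker genes was called in edgeR at an adjusted p below 0.05. At an unadjusted p below 0.05, 5 of 6 smooth muscle genes and 1 of 8 absorptive genes were higher, beside 5.17% of all tested genes. Lower were 6 of 7 neutrophil, 3 of 6 plasma cell and 2 of 6 fibroblast genes, beside 7.85%. In DESeq2 the shares over all genes were 0.597% higher and 2.43% lower. The sums of small intestine genes (42.8 to 72.2 CPM in KO and 58.7 to 84.3 CPM in WT) and of squamous genes (11.8 to 16.0 CPM in KO and 14.9 to 20.3 CPM in WT) were low and overlapped. Most of the former came from Alpi, and most of the latter from Sprr1a. The part of the shifts in muscle and immune genes in the Agr2 and Muc20 values was not tested.

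**Figure D5:**
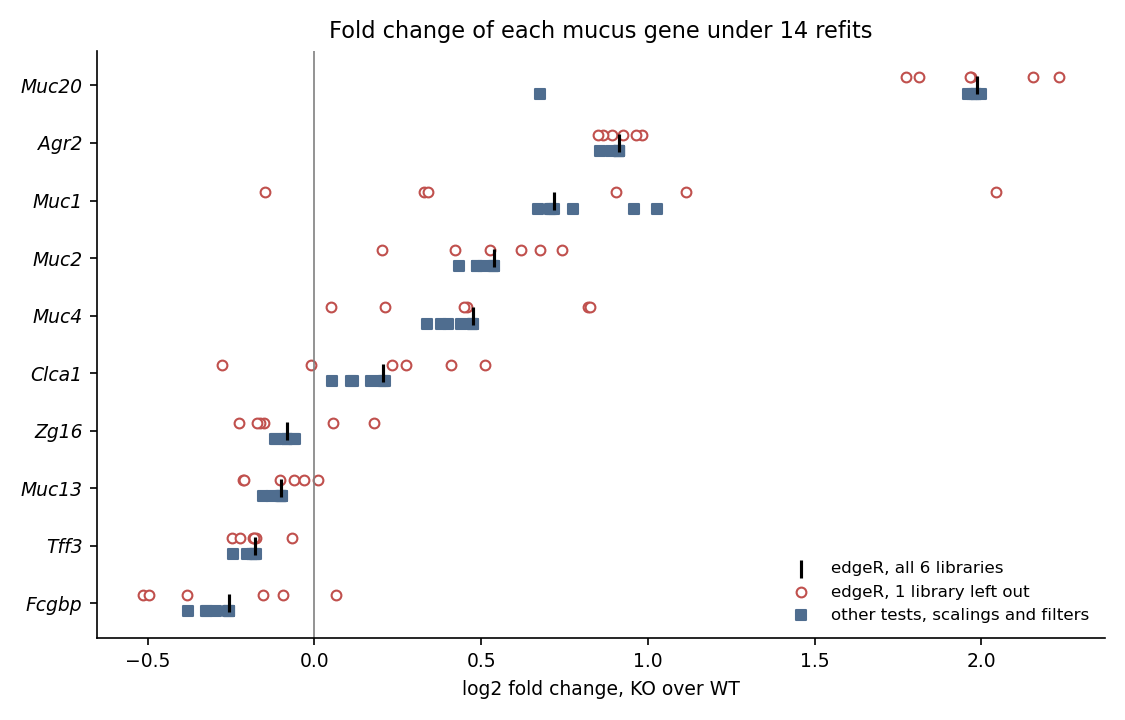
Log2 fold change, KO over WT, of each transcript in edgeR with all 6 libraries (black bar), with 1 library left out (open circles) and under the other tests, scalings and filters (squares). Agr2 stays between 0.85 and 0.98, Muc1 runs from -0.15 to 2.05, and the square of Muc20 at 0.68 is limma on log2(TPM + 1).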

How the data were processed

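Colon RNA (Trizol, total RNA) was sequenced after SMARTER mRNA-Seq library preparation, as the labels' protocols state. Genome builds GRCm38, mm10 and mm39 are listed in the submitters' processing notes, with no role. The aligner, counting program, annotation and strandedness used are not stated there. Counts per gene are whole numbers, used as the authors deposited them. TPM values are the authors' own and served for levels between genes and for 1 alternative. The deposited log2 fold changes and p-values are the authors' and are quoted only where named.

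Tests were by quasi-likelihood in edgeR 4.0.16 (R 4.3.3), after scaling by TMM and dropping genes of low count by filterByExpr, which kept 14553 of 21899 genes. P-values were adjusted by Benjamini-Hochberg over all tested genes, with calls below 0.05. Alternatives were other size factors, count filters, tests and a replicate block, and leaving out each library. Standard errors were derived from the F statistic. DESeq2 1.42.0 and limma 3.58.1 served as alternatives. Where a symbol had several rows, lists used the row with most counts. Scripts were tested on simulated data. Intervals cover the spread between libraries only.

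The genes of the set and all lists were chosen with earlier results of these data known. The rule for naming others took the 2 genes with the smallest p in each list and the 5 genes most like Muc2; of the muscle, stromal, immune and other-site marker lists, few are printed.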

Additional observations from a re-analysis of the deposited data

How the results depend on the processing

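Over 14 refits at an adjusted p below 0.05, the directions of Muc2, Tff3, Agr2, Muc4 and Muc20 were kept, and members were called only by DESeq2 (2 higher, Agr2 at 0.91 and Muc20 at 1.999). At an adjusted p below 0.1, edgeR called 1 member, Agr2 (0.91). With 1 library left out, edgeR called no member, and DESeq2, refitted in this way after seeing the data, called 1 to 3 higher and none lower. Over both tools the log2 fold changes then ran from 0.20 to 0.75 for Muc2, -0.51 to 0.069 for Fcgbp, -0.28 to 0.52 for Clca1, -0.23 to 0.18 for Zg16, -0.25 to -0.065 for Tff3, 0.85 to 0.98 for Agr2, -0.15 to 2.05 for Muc1, 0.049 to 0.83 for Muc4, -0.22 to 0.012 for Muc13 and 1.77 to 2.25 for Muc20. In edgeR the direction turned for Muc1 without KO 1 (-0.15), Clca1 without KO 2 (-0.28) or WT 1 (-0.01), Fcgbp without KO 3 (0.064), Zg16 without KO 3 (0.06) or WT 3 (0.18) and Muc13 without WT 2 (0.012), and in DESeq2 for these except Clca1 without WT 1. The cause of these turns was not tested.

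Genes called higher and lower in KO over the whole table numbered 1 and 22 in edgeR, 0 and 9 with median-ratio factors, 106 and 431 in DESeq2, 3 and 66 without a count filter, 20 and 114 at an adjusted p below 0.1, and 2 and 56 for limma on log2(TPM + 1). Upper-quartile factors gave 38 lower and limma-voom 2 higher. With 1 library left out they were 0 to 2 and 1 to 29 in edgeR, and 48 to 228 and 232 to 762 in DESeq2. Deviations from the genotype mean had an r of -0.455, -0.172 and -0.471 between same-numbered KO and WT libraries. Between differently numbered libraries, r ran from 0.0381 to 0.42. Within each genotype of 3 libraries the deviations sum to 0, so these values cannot decide whether the numbers pair the libraries. With the replicate block edgeR called 3 higher and 78 lower and no member. Without KO 3, the list medians were -0.06 for absorptive colonocytes (0.30 with all libraries), -0.44 for small intestine (0.17) and 0.07 for fibroblasts (-0.38). Muc20, at 7 to 40 counts per library, is the member limited most by depth.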
